A study of Rattus norvegicus with 10 samples.

Results

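Immediate early genes are the first to be transcribed when a cell receives a signal such as a growth factor, a stress or a hormone. Their transcription starts without new protein synthesis, through mitogen-activated protein (MAP) kinases and calcium signals that act on serum response factor at CArG boxes and on CREB at cyclic AMP response elements (CRE), and most of their RNAs are short-lived. Fos and Jun family proteins pair to form AP-1, the Egr proteins are zinc finger factors that bind GC-rich sites, and Nr4a1 is an orphan nuclear receptor, so that together they pass the signal on to later genes. In the kidney these genes are known to rise quickly after ischemia, mitogens and handling of the tissue.

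The set described here was chosen by name and held 10 genes: Fos, Fosb, Jun, Junb, Egr1, Egr2, Ier2, Ier3, Dusp1 and Nr4a1. Of these, 9 matched a row of the 32545 genes in the expression table, and Ier2 was not analysed here. Not all are transcription factors, since Dusp1 encodes a phosphatase and Ier3 encodes a short protein that acts on survival signalling.

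RNA was measured in the kidney cortex of male rats of the Dahl salt-sensitive background. The SS_WT group (5 libraries) was wild type at Kcnj16, which encodes a potassium channel subunit of the basolateral membrane of tubule cells, and the Kcnj16_m1 group (5 libraries) carried the mutant allele of that name on the same background. The labels describe the series as a Kcnj16 knockout, but do not say what the allele changes in the DNA. All rats were 11 to 12 weeks old, had spent a day in metabolic cages for urine collection, and had their kidneys flushed with saline under isoflurane before the left cortex was taken. No label says that each library came from its own animal, so the p-values measure the spread between these libraries, which may be partly technical.

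Values are FPKM (fragments per kilobase of transcript, scaled to the mapped fragments of each library), as the authors deposited them, and levels of different genes are compared on this length-corrected scale. Between 16361516 and 23385968 reads per library were assigned to genes. The Kcnj16 transcript itself lay between 323 and 372 FPKM in SS_WT and between 307 and 339 FPKM in Kcnj16_m1, with a log2 fold change of -0.09 (limma adjusted p = 0.278), so its level did not separate the labelled groups. Markers of the cortex were present in both groups, among them the proximal tubule phosphate transporter Slc34a1 at 1441 ± 209 and 1905 ± 72.7 FPKM (SD, n = 5 each). A gene was tested if it reached 0.5 FPKM in at least 5 libraries, with limma on log2(FPKM + 0.5) and Benjamini-Hochberg adjustment over all 13971 genes tested. The threshold was an adjusted p of 0.05, and fold changes are Kcnj16_m1 minus SS_WT on this log2 scale and come out too small for weakly expressed genes.

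Of the 9 members measured, 3 were lower in Kcnj16_m1 (Junb, Egr1 and Egr2), 0 were higher and 6 did not pass the test. Across all genes tested, 14.0% were lower and 14.6% were higher. The 3 members make 33.3% of the 9, and the median log2 fold change of all 9 was -0.32 beside 0.0079 over all genes tested. The groups did not overlap for 2 members, Junb and Egr2, which is 22.2% of the 9 beside 19.2% of all genes tested. Egr2 counts in both shares and passed the filter on low values only through the SS_WT libraries. The Egr1 call ended in 8 of the fits that left out 1 library. The members were chosen with earlier results of these data known, so these shares are descriptions. In these bulk samples, fewer cells that carry a transcript and less transcript per cell cannot be told apart.

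All 9 members passed the filter on low values. Egr2 passed it only through the SS_WT libraries, and Fosb through 4 SS_WT libraries and 1 Kcnj16_m1 library. None of the 9 overlapped another annotated gene.

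The promoters of 4 members are shown because these genes went different ways in the expression data: Egr2 and Junb were lower in Kcnj16_m1, Dusp1 did not pass the test and had a fold change near 0, and Nr4a1 had the highest fold change of the set without passing the test. Each run is the 250 bases before the annotated start in the RefSeq promoter table for assembly GRCr8, written 5′ to 3′ on the gene's strand. Capitals mark matches, on either strand, to the full CRE (TGACGTCA), to the core CRE (TGACG, which lies within the full CRE), to the AP-1 site (TGANTCA), to the CArG box, to the EGR site (GCGNGGGCG) and to TATAAA.
Egr2, chr20:21054442-21054691, minus strand: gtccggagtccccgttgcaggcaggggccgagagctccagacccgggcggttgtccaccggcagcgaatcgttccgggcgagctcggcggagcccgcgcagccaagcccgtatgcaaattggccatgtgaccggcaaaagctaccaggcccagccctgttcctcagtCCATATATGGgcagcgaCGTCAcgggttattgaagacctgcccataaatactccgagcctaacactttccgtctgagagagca
Junb, chr19:40080876-40081125, plus strand: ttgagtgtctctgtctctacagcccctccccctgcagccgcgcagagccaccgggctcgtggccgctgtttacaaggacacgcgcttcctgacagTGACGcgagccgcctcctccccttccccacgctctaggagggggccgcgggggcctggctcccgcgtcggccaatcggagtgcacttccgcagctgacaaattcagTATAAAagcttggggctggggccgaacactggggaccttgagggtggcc
Dusp1, chr10:17184603-17184852, plus strand: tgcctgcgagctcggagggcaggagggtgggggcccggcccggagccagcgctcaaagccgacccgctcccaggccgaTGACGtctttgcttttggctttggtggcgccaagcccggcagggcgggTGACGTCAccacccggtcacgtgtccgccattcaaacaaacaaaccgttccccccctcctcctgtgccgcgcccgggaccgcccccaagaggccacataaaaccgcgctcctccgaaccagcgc
Nr4a1, chr7:134259888-134260137, plus strand: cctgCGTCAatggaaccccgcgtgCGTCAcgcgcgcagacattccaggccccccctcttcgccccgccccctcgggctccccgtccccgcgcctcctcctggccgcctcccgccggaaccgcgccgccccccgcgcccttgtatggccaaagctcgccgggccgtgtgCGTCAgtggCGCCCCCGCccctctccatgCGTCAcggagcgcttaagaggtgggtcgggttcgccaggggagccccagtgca
In the Egr2 window the CArG box began 83 bases before the start and a core CRE 66 bases before it. Junb held a core CRE at 155 and a TATAAA at 49 bases before the start. Dusp1 held the full CRE at 124, with core CREs at 124 and 121 inside it and a separate one at 172, and Nr4a1 held core CREs at 246, 226, 82 and 53 with an EGR match at 73.

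The Egr1 window, not printed, had a CArG box at 83 and a core CRE at 66 bases before the start, the same positions as in Egr2, with a further CArG box at 105 and a further core CRE at 135. Fosb held a TATAAA at 180 bases before the start as its one match. The promoter table had entries for 6 of the 9 measured members, and windows for Fos, Jun and Ier3 were not used here. Of all 27457 promoter windows in the table, 1.70% held the full CRE, 19.0% the core CRE, 6.36% the AP-1 site, 1.501% the CArG box, 4.53% the EGR site and 13.1% the TATAAA. A match is a description of letters in the window and does not show that a factor binds there.

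Fos (ENSRNOG00000008015, chr6:109300433-109303299, plus strand; gene positions here and below are as deposited, on a build that the sources do not name) encodes the partner that cannot bind DNA alone and needs a Jun protein. SS_WT replicates 1 to 5 held 10.8, 10.8, 13.1, 12.8 and 13.8 FPKM, and Kcnj16_m1 replicates 1 to 5 held 5.44, 11.8, 15.3, 7.41 and 11.3 FPKM. The wild-type libraries lay close together, while the mutant libraries ran from below all of them to above all of them. The means were 12.3 ± 1.39 and 10.3 ± 3.89 FPKM (SD, n = 5 each), and the log2 fold change of -0.32 had a 95% interval of -0.82 to 0.18 (limma adjusted p = 0.312). Without Kcnj16_m1 replicate 1, the lowest library, it was -0.13.

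Fosb (ENSRNOG00000046667, chr1:80214494-80221710, minus strand), a relative of Fos, was the member with the lowest level. Its FPKM values were 0.546, 0.354, 0.661, 0.506 and 0.542 in the SS_WT libraries and 0.0813, 0.189, 0.539, 0.194 and 0.257 in the Kcnj16_m1 libraries, from 22 to 45 and from 7 to 39 reads. Mutant replicate 3 lay among the wild-type libraries and the other 4 mutants below them all. The log2 fold change was -0.46 (SE 0.17, limma adjusted p = 0.0605). Fosb passed the threshold without mutant replicate 3 (-0.59, adjusted p = 0.0203) and in limma-voom on the recovered read counts, where the fold change was -1.31 (adjusted p = 0.0196).

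Jun (ENSRNOG00000026293, chr5:114011189-114014277, minus strand), the central AP-1 subunit, stood at 56.0, 61.8, 72.0, 80.6 and 55.5 FPKM in SS_WT. The Kcnj16_m1 values were 43.9, 57.5, 76.8, 54.5 and 39.0 FPKM. The ranges overlapped, with mutant replicate 3 second among all 10 libraries. Its log2 fold change of -0.28 had a 95% interval of -0.66 to 0.09 (limma adjusted p = 0.237).

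Junb (ENSRNOG00000042838, chr19:26092974-26094756, minus strand) encodes a Jun family subunit that is a weaker activator than Jun and can oppose it. On GRCr8, the assembly of the promoter printed above, the gene is given on the plus strand instead. Junb stood at 54.4, 61.6, 60.1, 76.3 and 55.2 FPKM in SS_WT and at 26.8, 35.7, 46.2, 32.0 and 44.3 FPKM in Kcnj16_m1. Every mutant library was below every wild-type library. Junb fell from 61.5 ± 8.82 to 37.0 ± 8.20 FPKM (SD, n = 5 each), a log2 fold change of -0.74 (SE 0.15, limma adjusted p = 0.00443). The exact two-sided permutation test gave p = 0.00794, the smallest that 5 libraries against 5 allow.

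Egr1 (ENSRNOG00000019422, chr18:27657628-27661429, plus strand) encodes the zinc finger factor most widely used as a readout of MAP kinase activity. Its values were 18.7, 18.2, 18.8, 23.0 and 15.9 FPKM in SS_WT and 9.004, 14.3, 17.9, 12.4 and 14.4 FPKM in Kcnj16_m1. The ranges overlapped through mutant replicate 3, which was above wild-type replicate 5. The mean fell from 18.9 ± 2.57 to 13.6 ± 3.25 FPKM (SD, n = 5 each), with a log2 fold change of -0.48 (SE 0.16, limma adjusted p = 0.0386). This call ended when any one of SS_WT replicates 1 to 4 or Kcnj16_m1 replicates 1, 2, 4 or 5 was left out (adjusted p from 0.0543 to 0.0811) and when no filter was used (adjusted p = 0.0643). The log2 fold change over all leave-one-out fits was between -0.59 and -0.35.

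Egr2 (ENSRNOG00000000640, chr20:22454463-22459025, minus strand), a zinc finger relative of Egr1 also known for its role in myelinating Schwann cells, had the largest difference of the 9 members. The SS_WT libraries held 0.725, 1.14, 1.41, 0.897 and 1.06 FPKM, from 39 to 83 reads. The Kcnj16_m1 libraries held 0.121, 0.273, 0.272, 0.210 and 0.409 FPKM, from 9 to 22 reads. The highest mutant library was below the lowest wild-type library. The means were 1.05 ± 0.258 and 0.257 ± 0.105 FPKM (SD, n = 5 each), so the wild-type mean was 4.07 times the mutant mean. On the log2(FPKM + 0.5) scale Egr2 fell by 1.02 (SE 0.15, limma adjusted p = 0.00110; exact permutation p = 0.00794). The size depended on the pseudocount, being -1.70 with 0.1 and -0.70 with 1, and was -2.13 in limma-voom on the recovered counts.

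Nr4a1 (ENSRNOG00000007607, chr7:142905758-142920216, plus strand) had the largest within-group SD of log2(FPKM + 0.5) of the 9 members, 0.67 in SS_WT and 0.58 in Kcnj16_m1. It stood at 6.96, 7.86, 9.37, 19.7 and 5.44 FPKM in SS_WT and at 8.16, 17.4, 17.1, 20.2 and 8.90 FPKM in Kcnj16_m1. Wild-type replicate 4 lay with the 3 high mutants, and mutant replicates 1 and 5 lay with the other wild-type libraries. The means were 9.86 ± 5.66 and 14.4 ± 5.47 FPKM (SD, n = 5 each), and the log2 fold change of 0.57 had a 95% interval of -0.18 to 1.32 (limma adjusted p = 0.233). Without SS_WT replicate 4 it was 0.85 and passed the threshold (adjusted p = 0.0438).

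Ier3 (ENSRNOG00000000827, chr20:3438798-3440769, minus strand) showed the smallest difference of the 9. It held 32.8, 34.1, 40.7, 32.4 and 29.4 FPKM in SS_WT and 24.9, 40.0, 33.5, 37.5 and 31.4 FPKM in Kcnj16_m1. The groups overlapped over most of their range. Its log2 fold change of -0.03 had a 95% interval of -0.30 to 0.24 (limma adjusted p = 0.891).

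Dusp1 (ENSRNOG00000003977, chr10:16970626-16973418, plus strand) encodes a nuclear phosphatase that is induced with these genes and switches MAP kinases off. Its values were 22.8, 22.2, 27.5, 38.7 and 18.6 FPKM in SS_WT and 20.7, 26.4, 37.5, 30.4 and 18.3 FPKM in Kcnj16_m1. The groups covered nearly the same range. Its log2 fold change of 0.04 had a 95% interval of -0.45 to 0.52 (limma adjusted p = 0.922).

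In SS_WT the members ranked from Jun and Junb, whose ranges overlapped, through Ier3, Dusp1 and Egr1, each of which overlapped its neighbour, to Fos and Nr4a1, which overlapped each other, and then Egr2 and Fosb. The lowest Egr1 library (15.9 FPKM) was above the highest Fos library (13.8 FPKM), and the ranges of Egr2 and Fosb did not meet. Nr4a1, from 5.44 to 19.7 FPKM, reached into the ranges of Egr1 and Dusp1, so no gap set it apart from them.

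**Figure D1:**
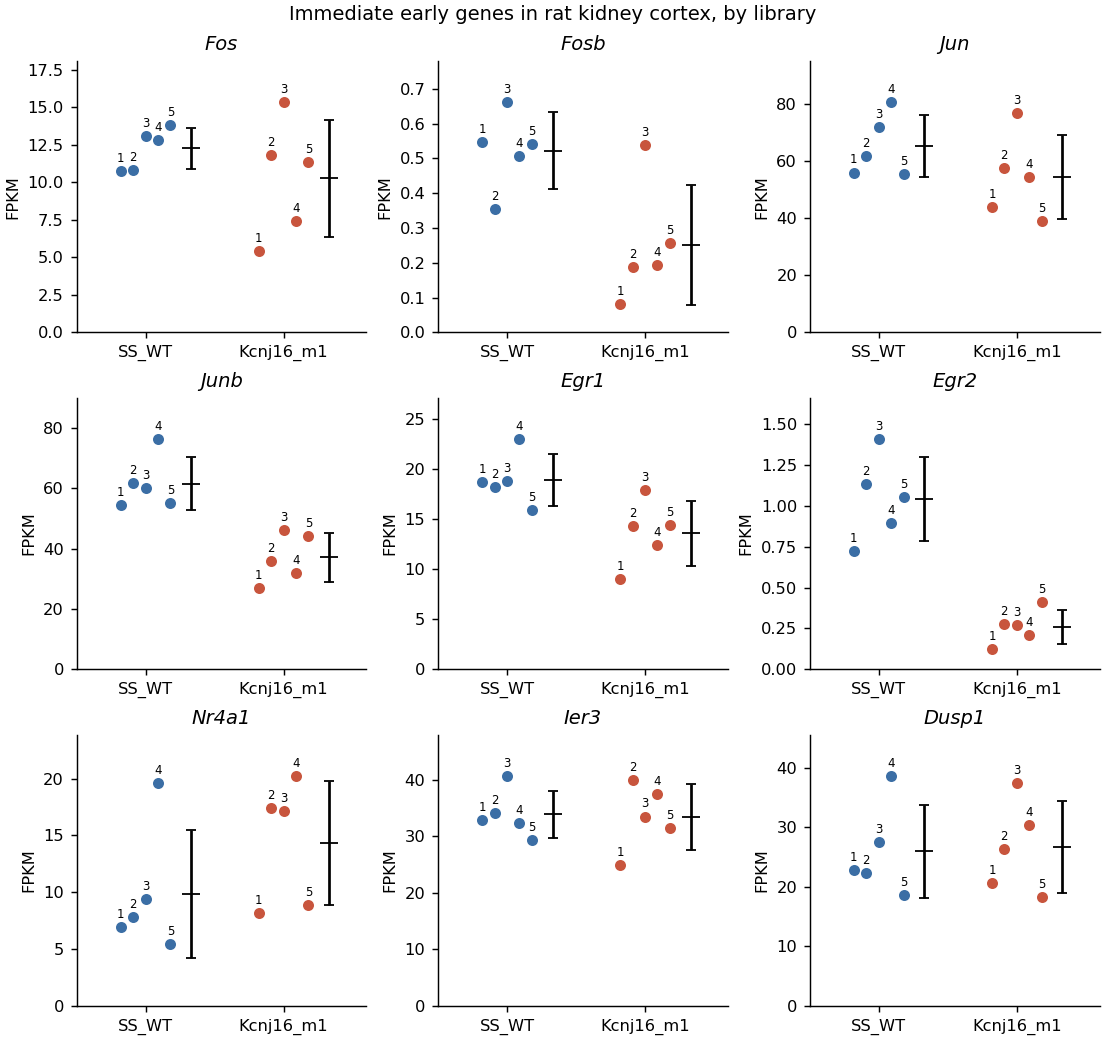
FPKM of the 9 measured immediate early genes (vertical axes, each from 0) in the 5 SS_WT and 5 Kcnj16_m1 libraries. Points are libraries with replicate numbers, bars are means with SD. Junb and Egr2 show no overlap between genotypes, while mutant replicate 3 lies among the wild-type libraries for Fosb, Jun and Egr1.

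Many of the members moved together from library to library within a genotype, with exceptions. Kcnj16_m1 replicate 1 was the lowest mutant for 7 of the 9 members and above the group mean for 0. Kcnj16_m1 replicate 3 was the highest mutant for 6 members and above the group mean for all 9. Among the wild-type libraries, SS_WT replicate 4 was highest for 5 members and SS_WT replicate 5 lowest for 5. Fos went the other way and was highest in SS_WT replicate 5. In Kcnj16_m1 replicate 5, Egr2 was at its highest among the mutants while Jun and Dusp1 were at their lowest.

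Egr1 followed the shared profile most closely, with a Pearson r of 0.93 between its group-centred log2 values and the mean profile of the 9 members over the 10 libraries. The lowest r was that of Egr2 (0.46), and the other 7 lay between 0.67 and 0.82. Each member is part of the mean it is set against, and all share the same 10 libraries, so these values are descriptions. Kcnj16_m1 replicate 1 also had the most reads assigned to genes (23385968), and the part of depth in its low values was not tested.

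**Figure D2:**
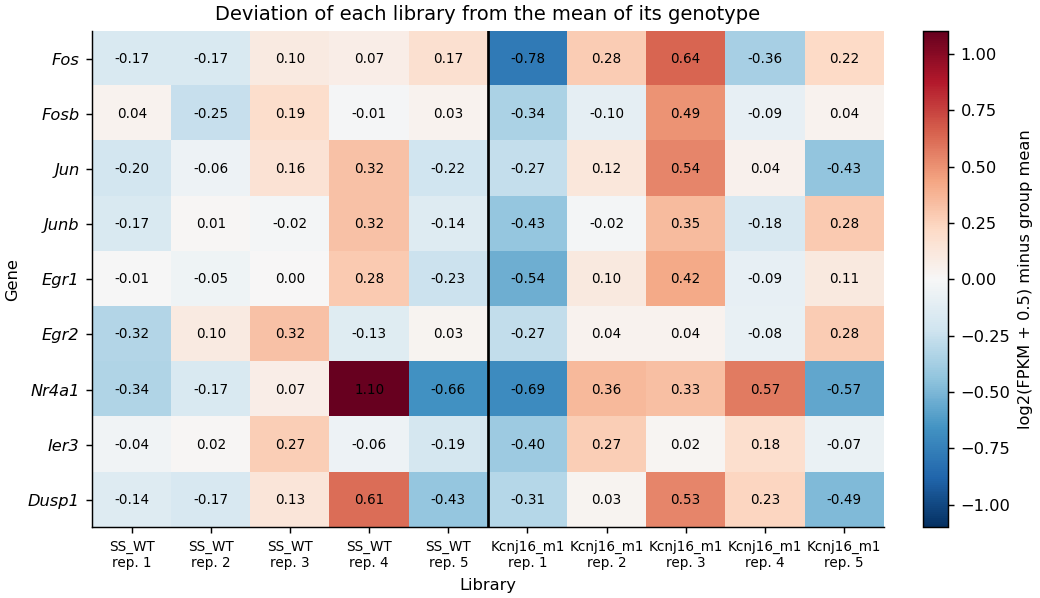
Deviation of each library from the mean of its own genotype on the log2(FPKM + 0.5) scale (colour), with the 9 members as rows and the 10 libraries as columns. The column of Kcnj16_m1 replicate 3 is positive for all 9 members and that of Kcnj16_m1 replicate 1 is negative for all 9.

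The spread within groups was wide for the level of these genes. Among the 500 tested genes nearest in mean level, the within-group SD of 7 members was at or above the 90th percentile, from Ier3 at 90.2 to Nr4a1 at 97.8. The exceptions were Fosb at 54.0 and Egr2 at 45.2, the members with the lowest levels. The SD of log2 values was larger in Kcnj16_m1 than in SS_WT for 7 of 9 members, among them Fos with 0.56 beside 0.16. It was larger for 6 of 9 without Kcnj16_m1 replicate 1. The same count over all genes tested was not made, and many members moved together over the same libraries. These counts therefore do not show that a wider mutant spread is particular to the members.

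Outside the set, the genes with the most similar library profile were taken as the 10 with the highest r to the members' mean profile, of 11465 genes compared over 10 libraries. They were Snap91 (r = 0.91), Gpr137 (0.88), Jdp2 (0.88), Rasd1 (0.87), Pdzd11 (0.86), Rgs1 (0.85), Zmynd8 (0.85), Btg2 (0.85), Fcgr3a (0.84) and Pogk (0.83). With 11465 genes compared over only 10 libraries, high r values also arise by chance. These r values carry no test, and the list does not show that the genes are regulated with the members. Of these, Jdp2 encodes a bZIP repressor that dimerises with Jun proteins, Rasd1 a small GTPase, Rgs1 a regulator of G protein signalling, Btg2 an antiproliferative early response protein and Fcgr3a an immunoglobulin receptor of myeloid and NK cells. The functions of Snap91 and Gpr137, which had the highest r, and of Pdzd11, Zmynd8 and Pogk are not described here. The genes described are thus no summary of the list.

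Because libraries shifted many of the members together, Fosb, Junb and Egr2 were also set against Fos, Jun and Egr1 in the same library. Egr1 was itself called lower and was not set against a relative of its own. These 3 ratios of FPKM were chosen after the values were seen and carry no test. The Egr2 to Egr1 ratio was 0.0388, 0.0625, 0.0748, 0.0390 and 0.0665 in the SS_WT libraries and 0.0134, 0.0191, 0.0152, 0.0169 and 0.0284 in the Kcnj16_m1 libraries. Every mutant ratio was below every wild-type ratio. This restates the larger fall of Egr2 than of Egr1 given above and is no separate result. The mutant ratios rest on 9 to 22 Egr2 reads per library.

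The Junb to Jun ratio was 0.970, 0.997, 0.835, 0.947 and 0.996 in SS_WT and 0.611, 0.621, 0.602, 0.587 and 1.14 in Kcnj16_m1. Mutants 1 to 4 lay within a narrow band below all wild-type libraries, and mutant replicate 5 was the highest of all 10. In that library Junb was second among the mutants at 44.3 FPKM and Jun was the lowest of all libraries at 39.0 FPKM. The Fosb to Fos ratio ran from 0.0328 to 0.0507 in SS_WT and from 0.0149 to 0.0352 in Kcnj16_m1, with mutant replicate 3 inside the wild-type range.

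**Figure D3:**
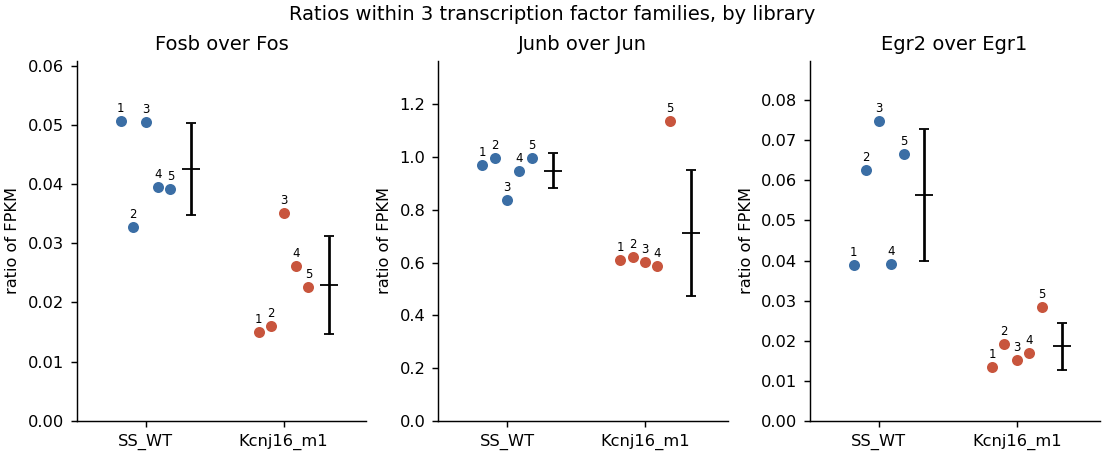
Ratio of FPKM between relatives in the same library (vertical axes, from 0) for Fosb to Fos, Junb to Jun and Egr2 to Egr1, by genotype. Points are libraries with replicate numbers. The Egr2 to Egr1 ratios do not overlap, and for Junb to Jun the mutant replicate 5 (1.14) stands above all other libraries while the other mutants lie between 0.587 and 0.621.

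Jund, the Jun family gene with steady expression, was the most abundant of the 3 and did not pass the test (89.5 to 111 FPKM in SS_WT and 97.2 to 115 FPKM in Kcnj16_m1, log2 fold change 0.09, limma adjusted p = 0.349). Junb made up 24.6% to 29.1% of the summed Jun, Junb and Jund FPKM in the SS_WT libraries and 14.4% to 22.5% in the Kcnj16_m1 libraries. The Jund share ran from 40.2% to 50.1% and from 45.0% to 61.9%. The share of Junb was thus lower in every mutant library than in any wild-type library, while the Jund ranges overlapped. This largely restates the fall of Junb given above and is no separate result.

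Among 13 tested AP-1 partners and related bZIP genes, 4 were lower, 2 higher and 7 not called, and the median log2 fold change was -0.25. Fosl2, which encodes a Fos-related AP-1 subunit, fell from 8.84 ± 2.86 to 4.95 ± 0.737 FPKM (log2 fold change -0.73, limma adjusted p = 0.0215). SS_WT replicates 1 to 5 held 10.5, 10.5, 11.7, 5.89 and 5.61 FPKM of Fosl2. Replicate 5 thus lay inside the mutant range of 3.96 to 5.86 FPKM and replicate 4 just above it. The Fosl2 call ended without SS_WT replicate 2 (limma adjusted p = 0.0539) or without Kcnj16_m1 replicate 5 (adjusted p = 0.0505). It also ended without SS_WT replicates 1 and 2 together (adjusted p = 0.111). Atf3, a stress-induced repressor, fell from 3.49 ± 1.22 to 1.27 ± 0.296 FPKM (-1.15, adjusted p = 0.00155), and the small Maf gene Maff fell by 0.79 (adjusted p = 0.00163).

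The fourth lower gene was Atf2, a stress kinase target, at -0.18 (adjusted p = 0.0384), a call that ended without the variance trend (adjusted p = 0.0507) and without any one of SS_WT replicates 2, 3 and 5 or Kcnj16_m1 replicates 3, 4 and 5 (adjusted p from 0.0580 to 0.0879). The higher genes were Maf, a large Maf factor, at 0.50 (adjusted p = 0.00132) and the small Maf gene Mafg at 0.29 (adjusted p = 0.0264), whose call ended without any one of SS_WT replicates 2 and 5 or Kcnj16_m1 replicates 3 and 5 (adjusted p from 0.0533 to 0.0636). The count of lower genes was 2 without SS_WT replicate 2 or without Kcnj16_m1 replicate 5, and the count of higher genes was 1 without either of these, SS_WT replicate 5 or Kcnj16_m1 replicate 3.

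Of the other relatives, the Egr corepressor gene Nab1 was higher at 0.21 (limma adjusted p = 0.0292) and Nab2 did not pass at 0.16 (adjusted p = 0.155). Nr4a2 had a log2 fold change of -0.11 (adjusted p = 0.450) and Ier5 of -0.16 (adjusted p = 0.307). Ier5l was higher at 0.42 (adjusted p = 0.0441). The calls of Nab1 and Ier5l ended in 7 leave-one-out fits each. Egr3, Egr4 and Nr4a3 were too low to be tested.

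**Figure D4:**
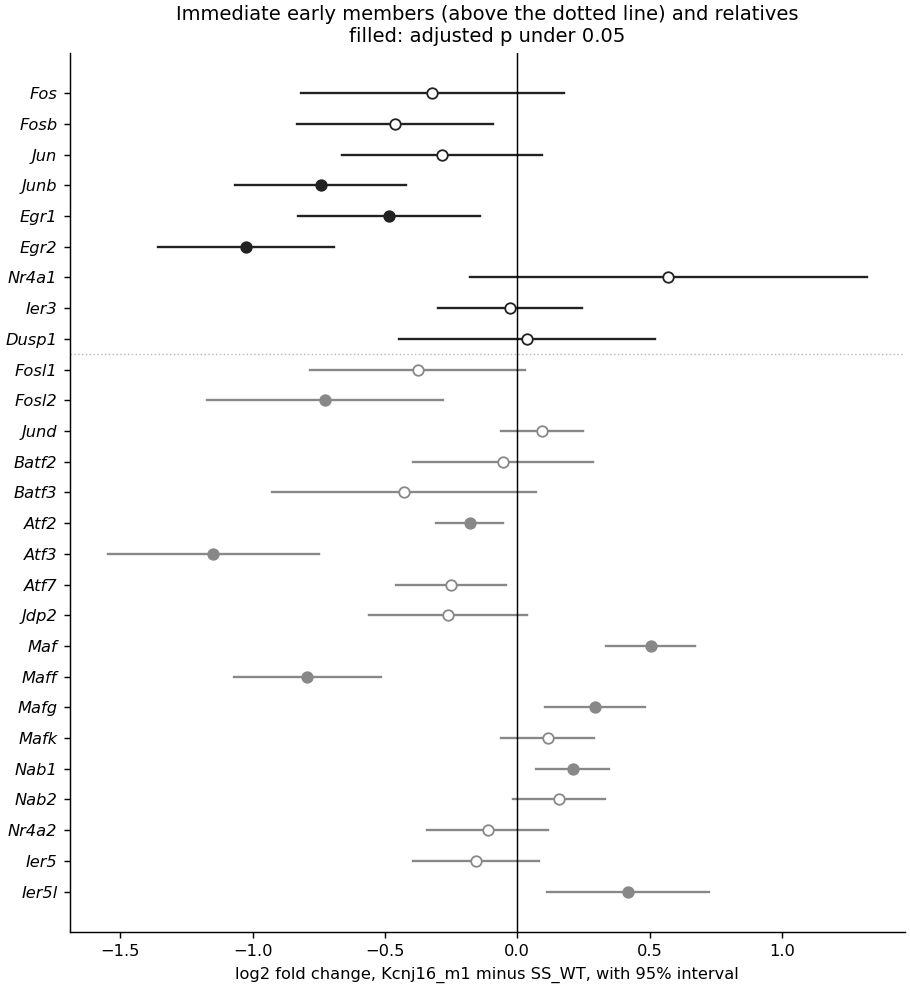
Log2 fold change (Kcnj16_m1 minus SS_WT, horizontal axis) with 95% interval for the 9 members, above the dotted line, and their relatives, below it. Filled points have an adjusted p under 0.05. Junb, Egr1 and Egr2 are filled on the lower side and no member is filled on the higher side.

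Of 9 tested MAP kinase phosphatase genes, 1 was higher and 2 were lower, with a median of -0.08. Dusp9 rose from 0.765 ± 0.257 to 1.99 ± 0.419 FPKM (0.99, limma adjusted p = 0.00249). Dusp16 fell by 0.38 (adjusted p = 0.00768) and Dusp8 by 0.50 (adjusted p = 0.0365). The Dusp8 call ended without any one of SS_WT replicates 2, 3 and 5 or Kcnj16_m1 replicates 2, 3 and 5 (adjusted p from 0.0540 to 0.0812).

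The steps before transcription were looked at through 33 genes of the MAP kinase cascade, of which 4 were lower, 9 higher and 20 not called (median 0.09). Among the 4 with the smallest adjusted p, the kinase gene Araf rose by 0.34 on the log2 scale (limma adjusted p = 0.00148) and overlaps another annotated gene, Syn1, and Rps6ka1, which encodes a ribosomal S6 kinase activated by ERK, fell by 0.35 (adjusted p = 0.00155). The stress kinase gene Mapk14 rose from 35.7 ± 2.29 to 44.5 ± 2.23 FPKM and the feedback inhibitor gene Spry1 from 12.9 ± 1.14 to 17.4 ± 0.985 FPKM (SD, n = 5 each). Among 13 genes of serum response factor, CREB and their coactivators, 2 were higher (Atf1 at 0.22 and Crtc2 at 0.19), 1 was lower (Creb1 at -0.30) and 10 did not pass. The lower count ranged from 0 to 2, and the higher count fell to 1, among the fits that left out 1 library.

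Other early response genes moved in both directions. Of 35 tested, 10 were lower, 7 higher and 18 not called, and the median log2 fold change was -0.06. The higher count was 4 without SS_WT replicates 1 and 2 together. Some genes are in more than 1 list, so the counts are not separate. Atf3 is also among the bZIP genes above, Myc among the tubular injury genes below and Per1 among the clock genes below. Ptgs2, the inducible cyclooxygenase, rose from 1.198 ± 0.0456 to 4.30 ± 0.331 FPKM (SD, n = 5 each; log2 fold change 1.495, limma adjusted p = 1.47e-06). Myc, a growth-promoting transcription factor, fell from 8.13 ± 3.86 to 2.98 ± 0.494 FPKM (-1.23, limma adjusted p = 0.00348), and Nfkbiz, a nuclear regulator of NF-kB targets, fell by 0.86 (adjusted p = 0.00384).

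Several lists of other cell types and states moved with genotype, and their part in the members' differences was not tested. Tubular injury genes were lower for 15 of 19 tested (median -0.86), macrophage and dendritic cell markers for 15 of 18 (median -0.71) and T, B and NK cell markers for 10 of 12 (median -0.86). The summed macrophage and dendritic marker level was 444 to 732 FPKM in SS_WT and 309.9 to 377 FPKM in Kcnj16_m1. That of T, B and NK cells was 36.7 to 53.8 and 19.5 to 25.7 FPKM, with no overlap in either list. Fibroblast markers were lower for 4 of 7 tested (median -0.52), with sums of 183 to 316 and 111 to 144 FPKM that did not overlap either. Lyz2 was the largest part of the macrophage and dendritic sum (mean 279 FPKM in SS_WT, 158 in Kcnj16_m1), and Dcn of the fibroblast sum (119 and 52.4). Endothelial markers were higher for 10 of 15 tested and podocyte markers for 6 of 8. Sums were also apart, but higher in Kcnj16_m1, for endothelial markers (185 to 224 FPKM in SS_WT, 248 to 267 in Kcnj16_m1). The same held for podocyte (121 to 134, 144 to 170) and collecting duct markers (325 to 460, 470 to 562). Collecting duct markers were higher for 10 of 15 and lower for 2, or lower for 1 without any one of SS_WT replicates 1, 2 and 4 or Kcnj16_m1 replicates 1, 2 and 3.

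**Figure D5:**
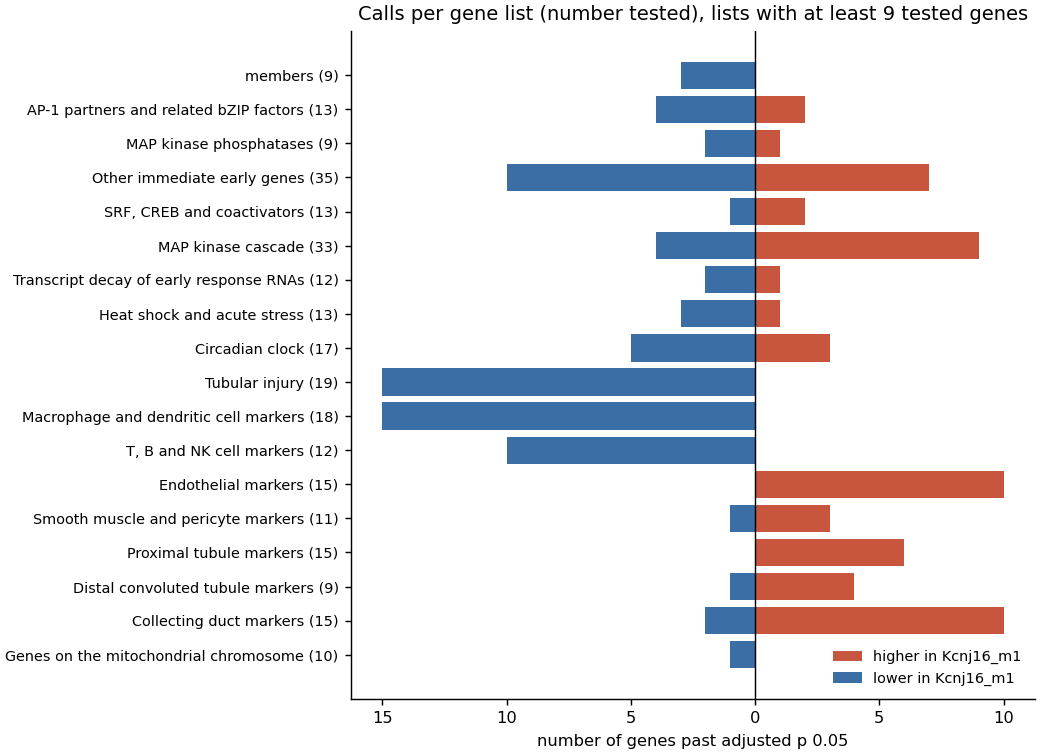
Number of genes lower (left of 0) and higher (right of 0) in Kcnj16_m1 at an adjusted p under 0.05, for lists with at least 9 tested genes. The 9 members show 3 lower and 0 higher, while injury, macrophage and lymphocyte lists show 15, 15 and 10 lower and 0 higher.

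Clock genes also moved, 3 of 17 tested being higher and 5 lower (median -0.45), and the lower count was 1 to 8 when single libraries were left out, with 8 without SS_WT replicate 3 or without Kcnj16_m1 replicate 5 and 1 without SS_WT replicate 2 or Kcnj16_m1 replicate 2. Arntl, the core activator of the clock, stood at 1.09, 0.851, 3.05, 0.797 and 1.48 FPKM in SS_WT and at 7.35, 7.41, 4.21, 4.92 and 2.30 FPKM in Kcnj16_m1. SS_WT replicate 3 was the highest wild-type library and Kcnj16_m1 replicate 5 the lowest mutant, so the groups overlapped through these 2. Dbp, a clock output gene, stood at 160 FPKM in Kcnj16_m1 replicate 5, beside 56.9 to 92.3 FPKM in the other mutants. The SS_WT libraries held 178, 145, 86.8, 157 and 140 FPKM of Dbp. Mutant replicate 5 thus lay in the wild-type range, and SS_WT replicate 3 in the range of the other mutants. Kcnj16_m1 replicate 5 is also the mutant with the high Junb to Jun ratio. By the numbers in the library titles it comes directly after SS_WT replicates 4 and 5, while the other mutants form a run of their own. SS_WT replicates 1 and 2 carry the lowest numbers. The labels do not say what these numbers mark, and their part in the values was not tested.

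Per1, a clock gene that is itself induced as an early gene, stood at 11.2, 13.0, 14.1, 20.3 and 11.1 FPKM in SS_WT and at 10.04, 18.0, 21.1, 25.7 and 10.5 FPKM in Kcnj16_m1. The 4 libraries with the highest Per1 were the same 4 as those with the highest Nr4a1. The labels give no time of day for the tissue collection, and its part in these values was not tested. Per1, Arntl and Dbp were set beside the members after their values were seen.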

How the data were processed

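Kidney cortex poly-A RNA was sequenced in 10 libraries, 5 SS_WT and 5 Kcnj16_m1, grouped by the genotype label. The authors deposited 1 table of FPKM per gene. The submitters' processing notes name featureCounts 1.5.0-p3, StringTie 1.3.3b, HISAT2 2.0.5 and fastp, and no genome build is named in the sources used here. The labels' protocols describe both directional and non-directional libraries without saying which was used, so antisense reads could not be set apart. Multiplying FPKM by gene length and by 1 factor per library, found from the smallest steps of the values, gave whole reads for 100% of values (tolerance 0.05 reads), from which depth was taken.

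The 13971 genes that reached 0.5 FPKM in 5 or more libraries entered limma 3.58.1 (R 4.3.3) with a variance trend, on log2(FPKM + 0.5), after a test on simulated data. The simulation gave every gene the same spread setting, so that test says little about members with a wide spread. Single members also had an exact two-sided permutation test. Named relatives were all tested genes of the AP-1, EGR, NR4A and IER lists, and in other lists up to 4 genes with the smallest adjusted p past the threshold. The similar library profiles were sought among tested genes outside the set with a mean of at least 1 FPKM. Other genes named were chosen after their values were seen. A further gene was taken out of the lists and is not reported here. The members and lists were chosen with earlier results of these data known. Alternatives were other pseudocounts, filters, scalings, limma settings, limma-voom on the recovered reads, and fits without single libraries.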

Additional observations from a re-analysis of the deposited data

Results flagged for a closer look

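Each value here stood apart from the other libraries of its group by Dixon's test at the 95% level, which by chance marks about 1 in 20 groups, and 60 groups were tested. Nr4a1 was 19.7 FPKM in SS_WT replicate 4, where the other wild-type libraries held 5.44 to 9.37 FPKM. Atf3 was 5.66 FPKM in SS_WT replicate 3, above 2.77 to 3.21 FPKM in the others. Maf was 99.0 FPKM in SS_WT replicate 3, above 80.4 to 85.2 FPKM. The Junb to Jun ratio was 1.14 in Kcnj16_m1 replicate 5, above 0.587 to 0.621 in the other mutants.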

How the results depend on the processing

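Junb and Egr2 kept their direction and stayed past the threshold in every alternative run, with log2 fold changes of -0.83 to -0.64 for Junb (20 alternatives) and -2.13 to -0.70 for Egr2 (19 alternatives). Egr2 and Fosb were not tested under the filter of 1 FPKM. Egr1 no longer passed with no filter (-0.48) and without SS_WT replicates 1 and 2 together (-0.50), and the fits that left out 1 library gave -0.59 to -0.35. Fosb passed without the variance trend (-0.46) and in limma-voom (-1.31), and ran from -0.59 to -0.38 over the leave-one-out fits. The 2 members with values near 0 changed sign: Ier3 was 0.04 without SS_WT replicate 3 and 0.072 without Kcnj16_m1 replicate 1 (range -0.096 to 0.072), and Dusp1 was -0.0071, -0.07, -0.10 and -0.02 without SS_WT replicate 2, SS_WT replicate 5, Kcnj16_m1 replicate 3 and Kcnj16_m1 replicate 4 (range -0.10 to 0.19) and -0.069 without SS_WT replicates 1 and 2 together. Nr4a1 ran from 0.40 to 0.85 over the leave-one-out fits and passed without SS_WT replicate 4. The number of members higher was 0 to 1 and of members lower 2 to 4 over those fits. Batf2, a related gene that did not pass, changed sign under quantile normalization (0.0026), without SS_WT replicate 1 (0.0044) and without SS_WT replicates 1 and 2 together (0.034), with -0.15 to 0.0044 over the leave-one-out fits. The causes were not tested. The counts over all genes moved by less than 1.5 times in all alternatives. No paired analysis was possible because the labels give no replicate number shared between the groups. Depth limits Fosb and Egr2, which rest on 7 to 83 reads per library.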
